A study of Mus musculus with 62 samples.

Results

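The balance between ribosome footprints and messenger RNA (mRNA) was examined gene by gene in control C2C12 cells, a line of mouse myoblasts (the proliferating precursors of skeletal muscle fibres). RNA-seq and Ribo-seq, with 3 libraries each, were made from these cells, and a gene was a member where its mean count reached 10 in both assays, with 1 transcript taken per gene. This rule kept 5307 of 10476 genes (50.7%), and these 6 libraries were among 62 samples in the study, which asked how the muscle-specific ribosomal protein RPL3L affects translation. The control cells (genotype empty) had been infected with a retrovirus carrying the empty pCX4/puro vector, selected with puromycin and kept at low confluence so that they went on dividing. The 2 other C2C12 lines, used only near the end, carried mouse RPL3 (RPL3 OE) or mouse RPL3L (RPL3L OE) in the same vector, and all 3 lines had passed through infection and puromycin. Replicates of the Ribo-seq were described by the study as biologically independent. For the RNA-seq libraries this is not given in the sources used here, so that part of the spread behind the p-values may be technical, and neither is whether a line is 1 clone or a selected pool.

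Ribo-seq reads the pieces of mRNA that lie inside ribosomes and so escape digestion by nuclease, and dividing their share by the share of the same mRNA in RNA-seq gives a measure of how many ribosomes an mRNA carries relative to other mRNAs. Cells set this load mainly when ribosomes begin translation, through features of the 5′ untranslated region (UTR) such as upstream start codons, hairpins bound by regulatory proteins and the pyrimidine tract at the start of ribosomal protein mRNAs. Myoblasts kept in growth medium express factors that commit them to muscle, such as MyoD, without yet making the contractile apparatus. RNA-seq was made from polyadenylated RNA and Ribo-seq from fragments of 17 to 34 nt recovered in the presence of cycloheximide. All values below are counts scaled to a common library total (CPM) over the 6 libraries, and the log2 ratio of Ribo-seq to RNA-seq (± SE) compares a gene with the others: a ratio of 0 means that the gene held about the same share of footprints as of mRNA reads. Counts of both assays were taken as covering coding sequence, since transcripts with the same coding sequence and different exons had nearly equal RNA-seq counts. Ribo-seq counts were not checked in this way. If they too cover only coding sequence, footprints on upstream frames are not in the values. How RNA-seq reads were counted is not given. Where a correction for RNA-seq counts over the whole mRNA, by the coding share of the transcript, turns a direction or ends a call, its value stands beside the result. Tests were 2-sided edgeR quasi-likelihood tests with Benjamini-Hochberg adjustment over the 5307 genes, called at an adjusted p under 0.05.

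Total counts per library were 6365654 to 13221208 for RNA-seq and 1519573 to 2024897 for Ribo-seq, so that the error of a ratio was set mainly by the footprints. Markers of myoblasts (5 of 10 in the table, among them Myod1 and Des) summed to 1823 to 1896 CPM in RNA-seq, those of differentiated muscle (8 of 10 in the table) to 87.1 to 94.9 CPM, and those of fibroblasts (6 of 7 in the table, with the collagen gene Col3a1 the most abundant) to 2463 to 2603 CPM, with the fibroblast marker Thy1 at 0 in each RNA-seq library. All transcripts that could be placed on the genome lay on its forward strand, and genes of the other strand were not analysed here. Since footprints that match several genes had been kept, the share of each coding sequence's 28-base windows that also occurs in a transcript of another gene is given where it bears on a value. Only exact matches of 28 bases were counted, so that shorter or mismatched likeness is not seen. A low share therefore does not exclude footprints from other genes. It was 10% or more for 985 tested genes (18.6%). At the count minimum, the 42 genes with a Ribo-seq mean from 10 to below 11 had a median log2 ratio of mean CPM of -0.03, and the 44 genes from 9 to below 10, which were left out, one of 0.13.

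Footprints followed mRNA over most of the range, with a Pearson correlation of 0.835 and a Spearman correlation of 0.845 across the 5307 genes between the mean log2 values, and 54.4% of genes lay within 1.5-fold of an equal share. The spread was nonetheless wide: the 5th and 95th percentiles of the log2 ratio were -1.75 and 1.24, a 7.94-fold span, against a median SE of 0.09. At an adjusted p under 0.05, 1996 genes (37.6%) were higher and 2111 (39.8%) lower in Ribo-seq. A change of at least 2-fold as well was seen for 424 genes upward (7.99%) and 756 downward (14.2%), which made 35.9% of the 2-fold calls upward. Scaling by library totals moved the median of all genes by 0.15 and this split to 49.4% upward, so that small departures from 0 hold only for the scaling used. The gene lists described next are read against these shares and against the median over all genes of -0.01. All 3 Ribo-seq libraries lay above the RNA-seq libraries for 38% of genes and below them for 40.8%, which is the background for each statement on overlap.

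**Figure D1:**
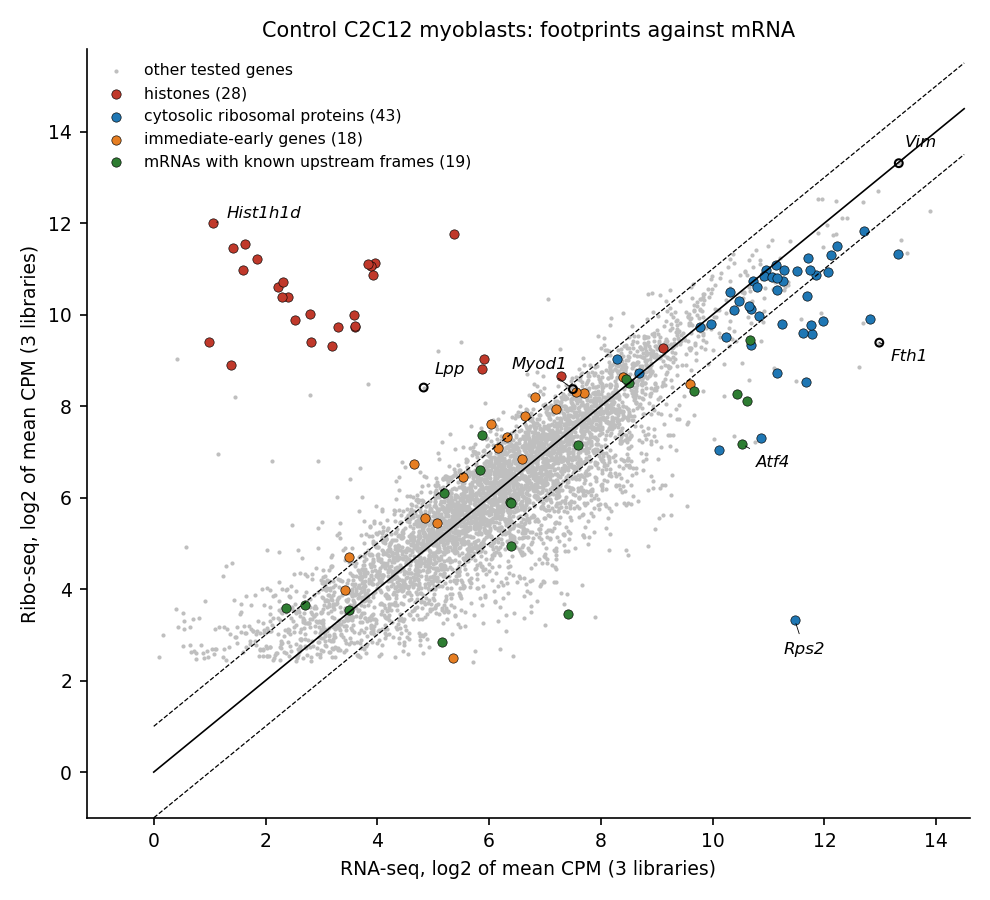
Mean Ribo-seq against mean RNA-seq signal for the 5307 tested genes, both as log2 CPM over 3 libraries, with the line of equal share (solid) and 2-fold departures from it (dashed). Of the 28 histone genes, 27 stand to the upper left and H1f0 near the line of equal share, and Rps2, Fth1 and Atf4 fall far below the line, whereas Vim lies on it.

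The greatest excess of footprints belonged to histone genes. All 28 tested members of the histone list were higher in Ribo-seq, 27 of them by at least 2-fold, and their median log2 ratio was 7.16. Hist1h3b, a gene for the core histone H3 (chr13:23752267-23752886, GRCm38), had 15.2, 14.2 and 17.3 CPM in RNA-seq and 1979.8, 2504 and 2255 CPM in Ribo-seq (log2 ratio 7.13 ± 0.08, adjusted p = 2.23e-50). Hist1h1c, a gene for a linker histone, had 43.5, 37.8 and 42.8 CPM in RNA-seq and 3127, 3784 and 3482 CPM in Ribo-seq (6.37 ± 0.06, adjusted p = 7.09e-51). For the linker histone gene Hist1h1d the values were 2.84, 0.834 and 2.55 CPM in RNA-seq and 3697, 4564 and 4058 CPM in Ribo-seq (10.84 ± 0.10). In each of these genes the lowest Ribo-seq library lay far above the highest RNA-seq library. The fitted ratios stood for an 83.0-fold excess for Hist1h1c and a 140.3-fold excess for Hist1h3b. The remaining 4 of 32 histone genes in the table had too few RNA-seq reads to be tested: Hist1h1a had RNA-seq counts of 7, 6 and 8 and Ribo-seq counts of 3221, 2878 and 2733, although it shared only 0.817% of its windows with another gene. Among the 28 tested genes, 27 shared 10% or more of their windows, so that footprints may be spread over near-identical copies.

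Histone mRNAs made during DNA replication end in a conserved stem-loop in place of a poly(A) tail. A 16-base consensus of this stem-loop was searched for on the coding strand after the coding sequence, in the transcripts of GENCODE M21 (GRCm38). It occurred in 38 of 10458 transcripts (0.363%) and within 100 bases of the transcript's end in 14 (0.134%). Of these 14, 13 were tested genes of the histone list, with log2 ratios from 1.38 to 9.40. The element is printed for 5 of them, 1 for each form found, because it defines this class of mRNAs. The other 15 tested members had no match in that window, among them Hist1h1d at 10.84 and Hist2h3c1 at 9.97. Matches in Hist1h1d and Hist2h3c1 lay farther away, 4884 and 1167 bases before the annotated end. Anywhere after the coding sequence, a match occurred in 22 of the 28 tested histone genes and in 6 other tested genes. Capitals mark the stem-loop.
Hist1h3b: cccaaaGGCTCTTTTCAGAGCCacccac
Hist1h3g: tttaaaGGCTCTTCTTAGAGCCacccat
Hist1h2bk: accaaaGGCTCTTTTAAGAGCCactaaa
Hist1h4h: accaaaGGCCCTTTTCAGGGCCgcccac
Hist1h4b: acaaaaGGTCCTTTTCAGGACCactcac
These lie on the plus strand at chr13:23752814-23752841, chr13:23535883-23535910, chr13:22036294-22036321, chr13:23531452-23531479 and chr13:23757360-23757387, and the first form occurred in 7 of the 13. Log2 ratios of the 5 genes were 7.13, 6.93, 6.47, 8.35 and 7.96. Because RNA-seq was made from poly(A)-selected RNA, poor recovery of these mRNAs and a heavy load of ribosomes on them cannot be told apart.

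Histone genes outside this class spread widely. H1f0, which encodes a linker histone of nondividing cells and was taken into the list by its symbol, had 555, 539 and 567 CPM in RNA-seq and 591, 658 and 598 CPM in Ribo-seq (0.15 ± 0.04, adjusted p = 0.00214), and without Ribo-seq replicate 2 its log2 ratio was 0.09 and no longer called. A second list of histone genes expressed outside replication, added after the values had been seen, held 5 tested genes. In it, Cenpa, the histone H3 variant of centromeres, had a log2 ratio of -1.02 (-0.01 and not called after correction for coding share), H2afz -0.16 (-0.01 and not called with library totals, 0.45 after correction for coding share), H1f0 0.15 (-0.15 with GC content and length trends removed), H2afj 2.02 and H2afx 3.27. H2afx encodes H2A.X, which is phosphorylated at DNA breaks, and had 139, 123.2 and 136 CPM in RNA-seq and 1146, 1398 and 1322 CPM in Ribo-seq. Its transcript holds a stem-loop match 822 bases before the annotated end. The 6 libraries of H2afx did not overlap between assays, with Ribo-seq 9.62-fold higher.

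mRNAs for the translation machinery lay at the opposite side. Ribosomal protein mRNAs and those of several translation factors begin with a terminal oligopyrimidine (TOP) tract, through which the growth-controlling kinase mTOR sets their translation. Of 43 tested cytosolic ribosomal protein genes, 35 were lower in Ribo-seq and 2 higher, with 15 lower by at least 2-fold and a median of -0.72. Rplp0, a protein of the ribosomal stalk, had 9975, 10439 and 10368 CPM in RNA-seq and 2555, 2629.8 and 2529 CPM in Ribo-seq (-1.997 ± 0.05, adjusted p = 4.03e-36). Rpl8, a protein of the large subunit, had 6676, 6848 and 6644 CPM in RNA-seq and 3422, 3885 and 3667 CPM in Ribo-seq (-0.88 ± 0.05). For both genes the 3 Ribo-seq libraries lay below the 3 RNA-seq libraries. Rpl8 shared 11.4% of its windows with another gene, and 42 of the 43 members shared at least 10%, so that the list gives no median free of sharing. The part of this sharing in the result was not tested. The lowest member, Rps2, had 3094, 2486 and 2914 CPM in RNA-seq and 9.68, 9.33 and 11.2 CPM in Ribo-seq and shared 88.2%. At the upper end stood Rpl22l1, a paralog of Rpl22, at 0.75 ± 0.04.

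Among 13 other TOP mRNAs, 9 were lower and 1 higher, with a median of -0.52. Tpt1, a growth-related protein read from a very abundant mRNA, had 10194, 10914 and 10709.9 CPM in RNA-seq and 2969, 3363 and 3201 CPM in Ribo-seq (-1.74 ± 0.05), and Hnrnpa1, an RNA-binding protein, 2952, 3133 and 3055 CPM in RNA-seq and 857, 998 and 1004 CPM in Ribo-seq (-1.68 ± 0.05). They were 3.34-fold and 3.21-fold lower in Ribo-seq, with no overlap between the assays, and both shared most of their windows (100.0% and 84.2%). Elongation factors were closer to 0: Eef1b2 was at -0.86, Eef1g at -0.52 and Eef2, the translocase of the ribosome, at -0.27. Naca, a subunit of the nascent chain complex, was at -0.69, Eif4b, a helper of the initiation helicase, at -0.69, and Nap1l1, a histone chaperone, at -0.55. For Rack1 (-0.10), a protein of the small subunit, the call was lost without RNA-seq replicate 2 (-0.09) or 3 (-0.09) or Ribo-seq replicate 1 (-0.07) or 3 (-0.10). Eif3f (-0.07), Vim (-0.02) and the nuclear import receptor Ipo7 (0.02) did not pass the test, and Eif3l, a subunit of initiation factor 3, was the higher one at 0.48 ± 0.04. Correction for coding share turned Eif3l (-0.19), Nap1l1 (0.33), Eif3f (0.29) and Ipo7 (-0.22), and library totals turned Rack1 (0.0499), Eif3f (0.08) and Vim (0.13). The 6 members that shared under 10% of their windows had a median of -0.04, with 1 higher and 2 lower.

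Translation initiation factors and their regulators lay on the same side, also where few windows were shared. Of 29 tested, 21 were lower and 5 higher (median -0.67), and of the 20 that shared under 10% of their windows, 14 were lower and 4 higher (median -0.70). Eif4g1, the scaffold that joins the cap to the ribosome, had 963, 989.8 and 940.0 CPM in RNA-seq and 487, 497 and 474 CPM in Ribo-seq (-0.99 ± 0.04, adjusted p = 7.64e-25). Eif4enif1, which carries the cap-binding protein into the nucleus, was at -1.82 ± 0.06, Eif5b, which joins the subunits, at -0.85 ± 0.05, and the eIF2α kinases Eif2ak1 and Eif2ak3 at -0.74 and -0.50. On the other side stood Eif2b2 (0.45) and Eif2b3 (0.44, or -0.23 after correction for coding share), subunits of the exchange factor for eIF2, and Eif5a2 (0.98 ± 0.23), a paralog of the elongation factor eIF5A with few counts in either assay. The ribosomal proteins of mitochondria, which are made by cytosolic ribosomes but lack the TOP tract, were mostly above 0: 30 of 47 were higher and 8 lower (median 0.24), though the median was 0.01 with trends of GC content and length removed. They ran from -1.32 for Mrpl30 to 1.28 for Mrpl33, both with 10% or more of their windows shared. The 32 members under 10% shared ran from -0.82 to 1.10. Aminoacyl-tRNA synthetases, which charge tRNAs, had 5 of 8 higher and 2 lower (median 0.26), between Gars at -0.22, a call lost with library totals (-0.06), and Aars at 0.57.

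mRNAs with known upstream open reading frames held some of the lowest ratios. Such frames capture scanning ribosomes before they reach the main start codon, and in Atf4 and Ddit3, regulators of the integrated stress response, they keep the protein low in unstressed cells. Atf4 (chr15:80255184-80257541) had 1419.9, 1520.3 and 1474 CPM in RNA-seq and 132, 145 and 156 CPM in Ribo-seq (-3.36 ± 0.06, adjusted p = 3.65e-42). Ddit3, which encodes CHOP, had 36.9, 39.0 and 31.2 CPM in RNA-seq and 4.61, 11.8 and 5.00 CPM in Ribo-seq (-2.35 ± 0.22, adjusted p = 4.69e-13). Ribo-seq lay below RNA-seq in every library, 10.3-fold for Atf4 and 5.08-fold for Ddit3 on average, and Atf4 shared none of its windows with another gene. Their upstream ATGs are shown with the main start codon because the position of these codons defines the class. Capitals mark the ATG.
Atf4 upstream ATG 1: ttttctctcATGgggccttta
Atf4 upstream ATG 2: gcggccaccATGgcgtattag
Atf4 upstream ATG 3: gcctaagccATGgcgctcttc
Atf4 start codon: ccccacaacATGaccgagatg
Ddit3 upstream ATG 1: gattatatcATGttgaagatg
Ddit3 upstream ATG 2: atgttgaagATGagcgggtgg
Ddit3 start codon: cgtgcagtcATGgcagctgag
All are on the plus strand of GRCm38 in the annotated transcripts of GENCODE M21, for Atf4 at chr15:80255294-80255314, chr15:80255573-80255593, chr15:80255672-80256213 (across an exon junction) and chr15:80256290-80256310, and for Ddit3 at chr10:127290820-127290840, chr10:127290829-127290849 and chr10:127295332-127295352. In Atf4 the first frame had 36 codons and the second 3 codons before a stop, and the third had 59 codons and ran past the start codon out of frame. In Ddit3 both frames, of 34 and 31 codons, ended before the start codon.

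Of all 19 tested mRNAs of this list, 11 were lower and 6 higher (median -0.46), 8 of them lower by at least 2-fold. The 12 that shared under 10% of their windows divided evenly, with 5 lower and 5 higher and a median of 0.03. Slc35a4, an orphan sugar transporter, had the lowest ratio at -3.98 ± 0.12, with 11 upstream ATGs in its annotated 5′ UTR, though it shared 62.0% of its windows. Of the 19 members, 8 had no upstream ATG in the transcript used, and 3 of these were lower and 4 higher. The polyamine genes of the list were lower as well: Odc1, the first enzyme of polyamine synthesis, had 1363, 1409 and 1367 CPM in RNA-seq and 318, 288 and 317 CPM in Ribo-seq (-2.16 ± 0.05), and Oaz1 and Oaz2, the antizymes that inhibit it and that are read through a frameshift, were at -1.23 and -0.54. Odc1, Oaz1 and Oaz2 shared 84.4%, 91.6% and 66.3% of their windows. Eif1 (-2.50) and Eif5 (-1.33), factors that select the start codon and whose own mRNAs are controlled by start codon choice, were lower too, like the eIF2α kinase gene Eif2ak4 (-1.46), the mitochondrial fission factor Mief1 (-0.46) and the phosphatase subunit Ppp1r15b (-0.43). Eif1 shared 99.04% and Eif5 27.6% of their windows, so that, with Slc35a4, 6 of the 11 lower genes shared 10% or more. Correction for coding share turned Oaz2 (0.30), Mief1 (0.57), Ppp1r15b (0.13) and Eprs (-0.75). Not every member followed. Eprs, a tRNA synthetase, and Bcl2l11, a promoter of cell death, did not pass the test at 0.00 and 0.06, and Hif1a, the oxygen-regulated factor, was at 0.13, a call lost without RNA-seq replicate 3 (0.12) or Ribo-seq replicate 1 (0.10). Cebpb, a transcription factor made in several isoforms from 1 mRNA, had 58.9, 58.4 and 59.4 CPM in RNA-seq and 174, 171 and 153 CPM in Ribo-seq (1.499 ± 0.07), and Cebpa, its relative, was at 0.98 ± 0.25. Both genes are rich in G and C, and with the trends of GC content and length removed the 2 values became -1.03 and -1.12. Cdkn1b (0.74), an inhibitor of cyclin-dependent kinases, Uchl1 (0.91), a deubiquitinase, and Fgf2 (1.24), a growth factor, were also higher.

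Another list held mRNAs that carry iron-responsive elements. Ferritin mRNA carries an iron-responsive element, a hairpin to which iron regulatory proteins bind when iron is scarce and so hold back translation, whereas the transferrin receptor mRNA carries such hairpins in its 3′ UTR, where they protect the mRNA from decay. Fth1, ferritin heavy chain (chr19:9982646-9985098), had 8034, 7958 and 8279 CPM in RNA-seq and 675, 653 and 681 CPM in Ribo-seq (-3.59 ± 0.05, adjusted p = 1.78e-45). Tfrc, the transferrin receptor, had 193, 192 and 179 CPM in RNA-seq and 401, 369 and 417 CPM in Ribo-seq (1.08 ± 0.05, adjusted p = 8.23e-24). The assays did not overlap for either gene: ferritin was 12.1-fold lower and the receptor 2.12-fold higher in Ribo-seq. Fth1 shared 26.2% of its windows, and Tfrc shared none. Cdc42bpa, a kinase whose mRNA has an element in its 3′ UTR, was at -1.81 ± 0.06. A search of 9979 annotated 5′ UTRs for the loop CAGTGN closed by 5 bases and their reverse complement, on the coding strand, found 6 matches (0.0601%). Of these, 4 lay in tested genes, and 3 are printed with the loop in capitals, since they join ferritin to genes outside the list.
Fth1: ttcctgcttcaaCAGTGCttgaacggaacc
Ftl1-ps1: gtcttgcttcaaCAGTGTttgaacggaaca
Pkd2: cgcgctgggcgcCAGTGAgcgccatggtta
They lie on the plus strand at chr19:9982732-9982761, chr13:74406428-74406457 and chr5:104459614-104459643. Ftl1-ps1, annotated as a copy of ferritin light chain and sharing all its windows with other genes, had 6131, 6341 and 6370.4 CPM in RNA-seq and 469, 471 and 449 CPM in Ribo-seq (-3.76 ± 0.05), and Pkd2, a calcium channel, had 183, 178 and 183 CPM in RNA-seq and 76.0, 70.9 and 72.5 CPM in Ribo-seq (-1.31 ± 0.07). A match describes the letters only, and binding was not measured.

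Most genes of the list of myogenic regulators were on the high side. Of 10 tested myogenic regulators, 8 were higher and 1 lower, 4 by at least 2-fold, with a median of 0.88, and each shared under 10% of its windows. Myod1, the factor that commits cells to muscle, had 199, 164 and 180.1 CPM in RNA-seq and 333, 330.1 and 330.0 CPM in Ribo-seq (0.87 ± 0.06, adjusted p = 1.35e-18). Myog, which drives differentiation and is low in dividing myoblasts, had 4.93, 4.34 and 5.50 CPM in RNA-seq and 13.4, 21.8 and 13.1 CPM in Ribo-seq (1.65 ± 0.25, adjusted p = 1.07e-07). Id3, an inhibitor of MyoD, had 180.4, 131 and 147 CPM in RNA-seq and 444, 394 and 408 CPM in Ribo-seq (1.45 ± 0.07). In these 3 genes every Ribo-seq library was above every RNA-seq library. Id1 (1.15), the cell cycle inhibitor Cdkn1a (1.32), the intermediate filament Des (0.77), Mef2c (0.88) and M-cadherin Cdh15 (0.27, or -0.12 after correction for coding share) were also higher, whereas the surface receptor Cdon was lower, with 210.0, 178 and 196 CPM in RNA-seq and 113, 108 and 108 CPM in Ribo-seq (-0.83 ± 0.07). Mef2d, at 0.04, did not pass and was at -0.61 after the same correction. With GC content and length trends removed, the list's median was 0.45, and Myod1 (0.06) and Id1 (0.17) no longer passed. As these were bulk libraries, a gene made by few cells and a gene made weakly by all cannot be told apart.

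Contractile genes were divided. Of 13 tested sarcomere and coupling genes, 7 were higher and 2 lower (median 0.40). Tnnt2, cardiac troponin T, which is also expressed in embryonic skeletal muscle, had 526, 534 and 542 CPM in RNA-seq and 60.8, 75.8 and 84.4 CPM in Ribo-seq (-2.88 ± 0.07, adjusted p = 3.08e-36). The assays did not overlap, and Ribo-seq was 7.37-fold lower. Tnnt3, a troponin T of fast muscle, was at -0.86 ± 0.24. Tnni1, the slow troponin I, was at 1.21 ± 0.18, the myosin-binding protein Mybph at 1.88 ± 0.35, muscle glycogen phosphorylase Pygm at 1.65 ± 0.38 and the calcium store protein Casq2 at 1.99 ± 0.39, the last with few counts in either assay. The study's own subject, Rpl3l, had RNA-seq counts of 9, 5 and 5 and Ribo-seq counts of 29, 14 and 25 and was too scarce in these cells to be tested.

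**Figure D2:**
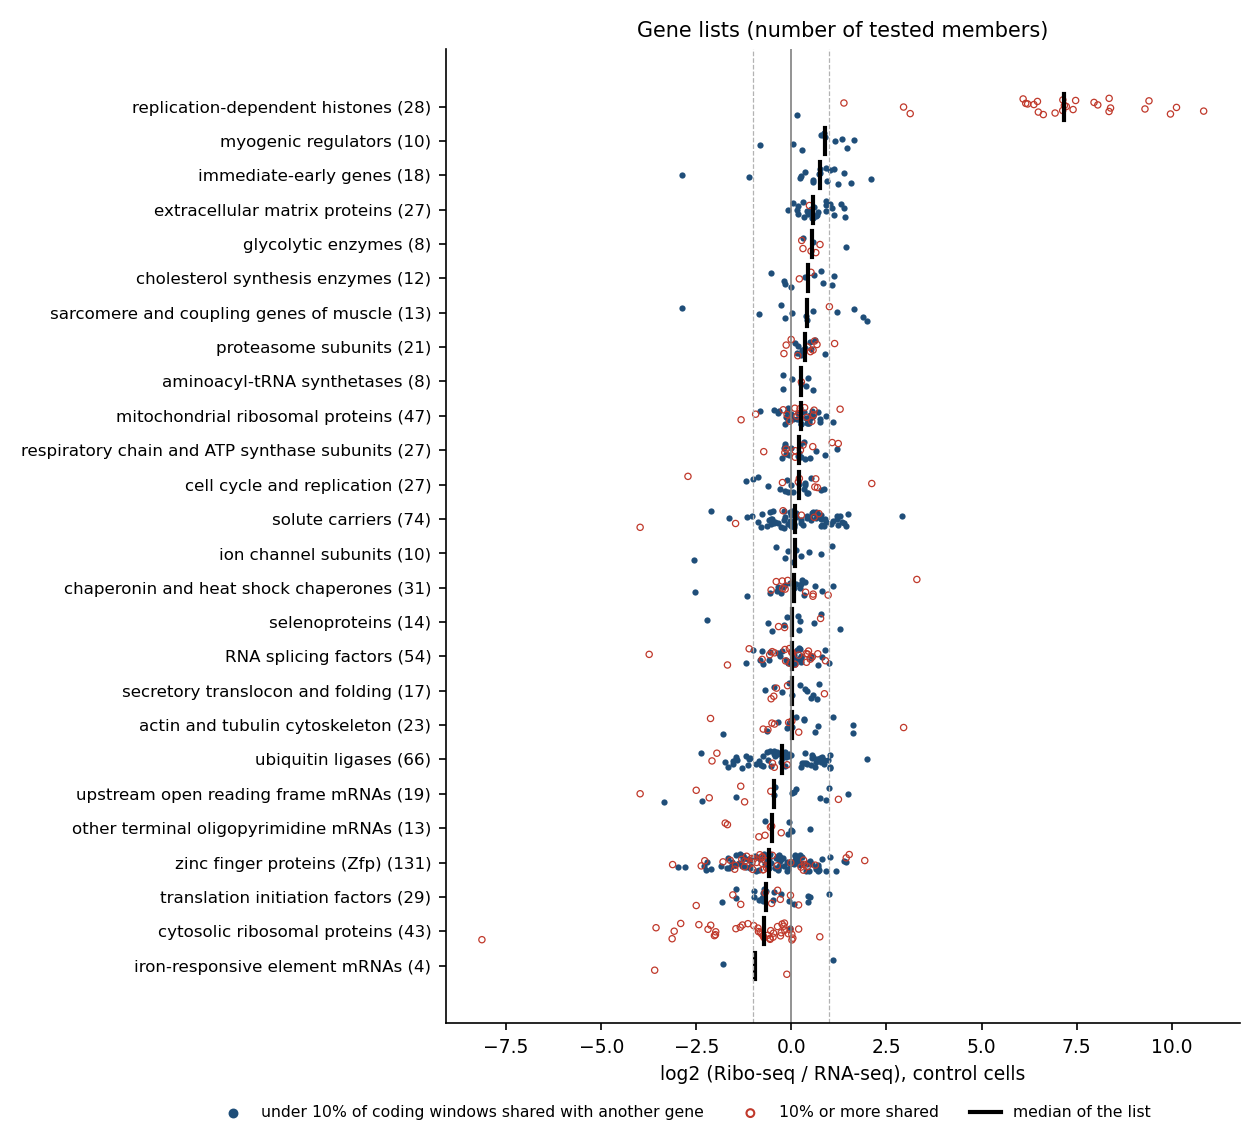
Log2 ratio of Ribo-seq to RNA-seq for the tested members of each gene list (points), ordered by the list median (black bar), with members that share 10% or more of their coding windows drawn as open red circles. The grey line is the median over all 5307 genes and dashed lines mark 2-fold. Histones stand at a median of 7.16, myogenic regulators at 0.88, and cytosolic ribosomal proteins, nearly all of them open circles, at -0.72.

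Immediate-early genes, whose short-lived mRNAs answer growth signals, were also mostly high. Of 18 tested, 16 were higher and 2 lower, 6 higher by at least 2-fold, with a median of 0.75 and with every member sharing under 10% of its windows. Maff, a small bZIP transcription factor, had 25.4, 26.3 and 24.0 CPM in RNA-seq and 111, 110.0 and 98.1 CPM in Ribo-seq (2.09 ± 0.10). Klf2, a zinc finger factor, had 65.3, 65.5 and 65.9 CPM in RNA-seq and 184, 205 and 196 CPM in Ribo-seq (1.57 ± 0.07), and Myc, the growth-promoting factor, 147, 147 and 145 CPM in RNA-seq and 249, 249 and 237 CPM in Ribo-seq (0.75 ± 0.06). The phosphatases that switch off MAP kinases, Dusp2, Dusp4 and Dusp6, were at 1.22, 1.39 and 1.13. The assays did not overlap for Maff, Klf2 or Myc. The exceptions were Nr4a1, an orphan nuclear receptor, with 44.5, 38.3 and 40.3 CPM in RNA-seq and 5.07, 3.73 and 8.12 CPM in Ribo-seq (-2.87 ± 0.21), and Jund, the constitutive member of the Jun family, with 765, 805 and 754 CPM in RNA-seq and 349, 371 and 348 CPM in Ribo-seq (-1.12 ± 0.05). With GC content and length trends removed, the list's median was 0.39, Maff was at 0.12 and no longer passed, and Klf2 turned to -0.29.

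Secreted proteins of the matrix were next. Of 27 tested extracellular matrix genes, 22 were higher and 1 lower, 6 higher by at least 2-fold (median 0.58), and 26 of the 27 shared under 10% of their windows. Col1a1 and Col1a2, the chains of type I collagen, had 822, 835 and 758 CPM in RNA-seq and 1583, 1771 and 1546 CPM in Ribo-seq (1.02 ± 0.05) and 1899, 1887 and 1844 CPM in RNA-seq and 1713, 1872 and 1701 CPM in Ribo-seq (-0.09 ± 0.04, adjusted p = 0.0489), respectively. Thus the 2 chains of 1 protein had unlike ratios, Col1a1 without overlap of the assays and Col1a2 with overlap. The call on Col1a2 was lost without RNA-seq replicate 1 (-0.08), 2 (-0.09) or 3 (-0.10) or Ribo-seq replicate 1 (-0.07) or 3 (-0.07), and its sign turned with library totals as the scale (0.06) and with GC content and length trends removed (0.15). Timp3, an inhibitor of matrix metalloproteinases, had 129, 119.6 and 133 CPM in RNA-seq and 334, 336 and 344 CPM in Ribo-seq (1.40 ± 0.05). Ccn2, a matrix protein induced by growth factors, was at 1.38 ± 0.05, thrombospondin Thbs1 at 1.31 ± 0.04, decorin Dcn at 1.11 ± 0.16 and Col3a1 at 0.34 ± 0.04 (-0.18 after correction for coding share). Of 17 genes for the entry of such proteins into the endoplasmic reticulum, 8 were higher and 7 lower (median 0.01), and of the 12 that shared under 10% of their windows, 7 were higher and 3 lower (median 0.29). Within them the oligosaccharide transferase subunits Rpn1, Rpn2 and Ddost were at 0.41, 0.51 and 0.68 and the translocon partners Ssr4 and Sec61b at 0.74 and 0.87, whereas Sec63 (-0.68) and Srp9 (-0.53, or 1.01 after correction for coding share), a subunit of the signal recognition particle, were lower. Sec61b, the highest of the list, shared 10% or more of its windows.

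Metabolic enzymes and the proteasome were moderately high. All 8 tested genes of the glycolysis list were higher (median 0.54), from the pyruvate kinase gene Pkm at 0.27 (0.02 and not called after correction for coding share) to the glucose transporter Slc2a1, which had 262, 269.8 and 265 CPM in RNA-seq and 713, 722 and 717 CPM in Ribo-seq (1.43 ± 0.04, adjusted p = 2.30e-32) without overlap and shared none of its windows. Of the 8, 5 shared 10% or more, Pkm and Eno1 among them. Of 12 genes of cholesterol supply 8 were higher and 3 lower (median 0.43): Dhcr7, which makes the last step, was at 1.12 ± 0.09, whereas Srebf2, a transcriptional regulator of this pathway, was at -0.54 ± 0.04. Respiratory chain and ATP synthase subunits encoded in the nucleus had 17 of 27 higher and 6 lower (median 0.21, or -0.06 with GC content and length trends removed), from the assembly factor Ndufaf4 at -0.73 ± 0.09 (1.22 after correction for the coding share of its transcript) to the complex I subunit Ndufb2 at 1.23 ± 0.06. Both of these genes shared 10% or more of their windows, and the 17 members under 10% shared ran from -0.24 to 1.20. Proteasome subunits, which form a complex in fixed amounts, had 18 of 21 higher and 2 lower (median 0.35), and all 11 that shared under 10% of their windows were higher, between Psmd3 at 0.11 and Psmb2 at 0.88. The highest subunit was Psmb3 at 1.14 ± 0.04, which shared 85.9%. Psmd3 was at -0.32 after correction for coding share, and its call was lost without RNA-seq replicate 3 (0.10) or Ribo-seq replicate 2 (0.09) or 3 (0.10). Psmd2, a subunit of the regulatory particle that shared 10% or more of its windows, was lower at -0.20, which turned to 0.03 with GC content and length trends removed.

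Genes of the cell cycle did not share 1 direction, with 15 of 27 higher and 7 lower (median 0.20). Cdk6, a G1 kinase, had 42.1, 38.8 and 37.1 CPM in RNA-seq and 174, 164 and 169 CPM in Ribo-seq (2.11 ± 0.08, adjusted p = 8.19e-28), and Cdk4, its partner in the same step, had 1639.8, 1613 and 1664 CPM in RNA-seq and 884, 886 and 918 CPM in Ribo-seq (-0.87 ± 0.04, adjusted p = 2.37e-23). The 2 kinases thus lay on opposite sides, each without overlap of the assays, with Cdk6 4.33-fold higher in Ribo-seq. Factors that supply DNA replication were higher: Rrm1 and Rrm2, the subunits of ribonucleotide reductase, were at 0.85 and 0.64, the licensing factors Cdt1 and Cdc6 at 0.79 and 0.68, and the helicase subunit Mcm5 at 0.52 (-0.07 after correction for coding share). Plk4, the kinase that starts centriole duplication, had 477, 489.7 and 492 CPM in RNA-seq and 68.2, 76.5 and 78.7 CPM in Ribo-seq (-2.72 ± 0.06), and Cdc25b, a phosphatase that admits cells to mitosis, had 376, 356 and 374 CPM in RNA-seq and 170.1, 165 and 146 CPM in Ribo-seq (-1.196 ± 0.06). Both were lower in every Ribo-seq library than in any RNA-seq library. Of these 4 genes, Cdk6 and Plk4 shared 17.6% and 14.59% of their windows with other genes.

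Among regulatory gene families, zinc finger (Zfp) genes stood lowest. Of 131 tested, 77 were lower and 23 higher, 43 lower by at least 2-fold (median -0.60), and for the 94 that shared under 10% of their windows the median was -0.38. Zfp664 and Zfp523, both under 10% shared, were at -2.99 ± 0.11 and -2.79 ± 0.13, and Zfp275 was at 1.43 ± 0.12. The whole list ran from Zfp652 at -3.12 ± 0.19 to Zfp108 at 1.93 ± 0.41, both above 10% shared. RING and F-box ubiquitin ligases had 34 of 66 lower and 19 higher (median -0.26), between Fbxl19 at -2.38 and Trim7 at 1.98. Solute carriers were near the median of all genes (33 of 74 higher, 23 lower, median 0.10) but wide, from the sugar transporter Slc35a4 (-3.98) and the creatine transporter Slc6a8 at -2.12 ± 0.08 to the inositol transporter Slc5a3 at 2.92 ± 0.13. Splicing factors (22 of 54 higher, 20 lower, median 0.02), heat shock chaperones (12 of 31 higher, 13 lower, median 0.06), actin and tubulin genes (10 of 23 higher, 9 lower, median 0.00) and selenoproteins (5 of 14 higher, 7 lower, median 0.02) had shares near those of all genes. In these lists single members still stood far out. The tubulin gene Tuba1c was at -2.13 and γ-tubulin Tubg2 at 2.95, both with 10% or more of their windows shared. Others were the co-chaperone Dnajc14 at -2.52 and the antioxidant enzyme Gpx3 at -2.22. The Hsp70 family member Hspa1l was at 3.30 ± 0.26, with few RNA-seq counts and 20.3% of its windows shared. The highest splicing factor was Hnrnpl (0.99) and the highest selenoprotein Selenoi (1.28), an enzyme of phospholipid synthesis. Only 10 of 82 ion channel subunit genes in the table were tested, among them Cacnb3 at -2.55 ± 0.09 and the potassium channel Kcnn4 at 1.07 ± 0.05.

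The single genes with the lowest ratios, among those with a mean of at least 100 RNA-seq and 20 Ribo-seq counts, no overlap between the assays and no symbol of a predicted gene or pseudogene, belonged to none of the classes above except Fth1 and the splicing factor Hnrnpa3. Cdk16, a cyclin-dependent kinase of the PCTAIRE group (chrX:20688418-20699880), had 463, 444 and 466 CPM in RNA-seq and 31.8, 30.5 and 30 CPM in Ribo-seq (-3.89 ± 0.08, adjusted p = 2.75e-39). Evl, a regulator of actin filaments, had 358, 341 and 375 CPM in RNA-seq and 29.5, 29.2 and 21.2 CPM in Ribo-seq (-3.74 ± 0.09), and Ryk, a Wnt receptor, 501, 514 and 486 CPM in RNA-seq and 37.8, 37.9 and 43.1 CPM in Ribo-seq (-3.66 ± 0.07). In these 3 genes Ribo-seq was 12.7- to 14.8-fold lower, and none shared more than 0.285% of its windows. Csnk1g2, a casein kinase, had 614, 610.3 and 609.8 CPM in RNA-seq and 51.2, 51.0 and 45.6 CPM in Ribo-seq (-3.63 ± 0.07). Lsp1, an actin-binding protein (-3.64 ± 0.09), the transcription factor gene Usf3 (-3.68 ± 0.12), Vps54, a tether of vesicles at the Golgi (-3.59 ± 0.10), and the kinase Tesk1 (-3.57 ± 0.13) completed the 10 with Hnrnpa3 (-3.74 ± 0.07, 97.7% shared). Of these 10, 8 had at least 1 upstream ATG, against 48.1% of all tested genes, up to 14 in Tesk1.

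At the other end, 7 of the 10 highest by the same rule were histone genes, H2afx included. The 3 others were Lpp, a focal adhesion protein (chr16:24448091-24981030), with 30.8, 26.5 and 27.98 CPM in RNA-seq and 353, 344 and 319 CPM in Ribo-seq (3.58 ± 0.07, adjusted p = 3.10e-39), Scd3, a fatty acid desaturase, with 30.6, 38.02 and 33.4 CPM in RNA-seq and 579.8, 597 and 600.0 CPM in Ribo-seq (4.13 ± 0.06), and Prl2c5, a member of the prolactin family, with 35.3, 58.5 and 42.0 CPM in RNA-seq and 676, 709 and 649 CPM in Ribo-seq (3.93 ± 0.07). Lpp was 11.96-fold higher in Ribo-seq and shared none of its windows, whereas Scd3 shared 40.7% and Prl2c5 50.5%.

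**Figure D3:**
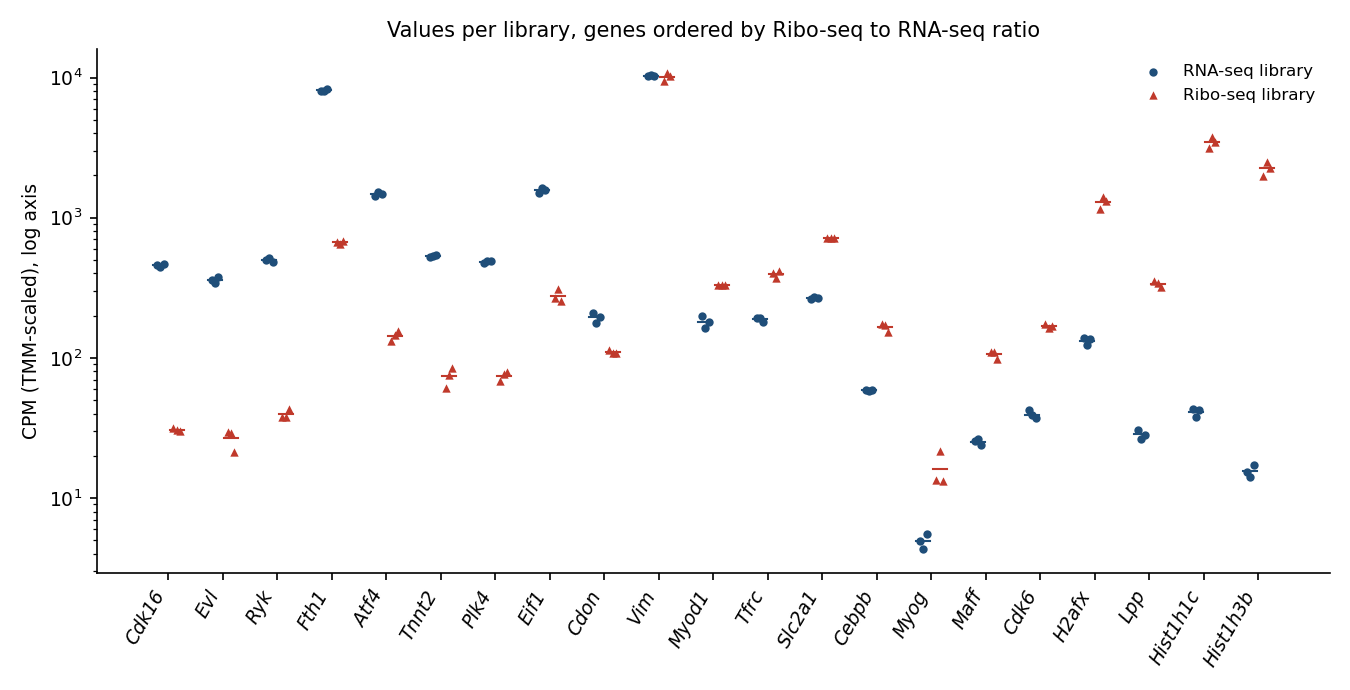
CPM of 21 genes in each of the 3 RNA-seq libraries (circles) and 3 Ribo-seq libraries (triangles) on a log axis, with short lines at the means, ordered by their ratio. The assays change places from left to right, overlapping for Vim, with Cdk16 at 31.8, 30.5 and 30 CPM in Ribo-seq against 444 to 466 CPM in RNA-seq and Lpp at 319 to 353 CPM against 26.5 to 30.8 CPM.

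The most abundant mRNAs were not those most occupied by ribosomes. Lgals1 (galectin-1), Tuba1c, Tpt1, Vim and Rplp0 had the highest RNA-seq CPM, and of these only vimentin was also among the 5 highest in Ribo-seq. Tuba1c, Tpt1 and Rplp0 shared 10% or more of their windows with other genes. The mean Lgals1 signal per kilobase of coding sequence was 37249 CPM in RNA-seq and 12127 CPM in Ribo-seq (log2 ratio -1.62 ± 0.05). For Vim, the intermediate filament of mesenchymal cells, the levels were 7367 and 7261 CPM per kilobase, equal within the error. The other 4 highest in Ribo-seq were Eef2 and the glycolytic genes Eno1, Eno1b and Pkm, of which Eno1 had 3772, 3796 and 3765 CPM in RNA-seq and 5581, 6224 and 5888 CPM in Ribo-seq (0.64 ± 0.04). Eno1 and Eno1b shared over 90% of their windows with other genes, so that their footprints cannot be assigned to 1 copy.

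A further 601 genes had an RNA-seq mean of at least 10 with a Ribo-seq mean under 10. The 5 with most RNA-seq reads were Rpl29, Rpl21, Tex52, Insyn1 and Parp6. Rpl29, a ribosomal protein, had RNA-seq counts of 3516, 3535 and 7018 and Ribo-seq counts of 6, 3 and 9 with 99.8% of its windows shared, and Rpl21 was alike. Tex52 had counts of 377, 323 and 690 in RNA-seq and 2, 2 and 2 in Ribo-seq, and Insyn1, a protein of inhibitory synapses, 325, 294 and 562 and 2, 2 and 3. Parp6, a mono-ADP-ribosyltransferase, had 295, 254 and 588 and 9, 3 and 4. Insyn1 and Parp6 shared no windows with another gene, and of the 601 genes 125 (20.8%) shared 10% or more.

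Features of the transcripts varied with the ratio across genes. The median log2 ratio was 0.17 for the 2677 genes without an upstream ATG in the annotated 5′ UTR, -0.12 for 1220 genes with 1, -0.27 for 530 with 2, -0.38 for 497 with 3 or 4 and -0.48 for 236 with 5 to 9. For the 66 genes with 10 or more it was -0.31. Among genes at least 2-fold lower, 69.4% had an upstream ATG, against 48.1% of all tested genes and 35.6% of those at least 2-fold higher. Longer coding sequences went with lower ratios too, from a median of 0.19 in the shortest quintile to -0.36 in the longest. Within each quintile of coding length, counted over genes that shared under 10% of their windows, genes without an upstream ATG lay 0.28, 0.29, 0.38, 0.46 and 0.46 above those with one, from shortest to longest. Spearman correlations with the ratio were -0.265 for the number of upstream ATGs (5226 genes), -0.235 for coding length and 0.215 for GC content of the coding sequence. Genes in 1 assay share libraries, base composition and annotation, and the parts of these features were not separated.

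**Figure D4:**
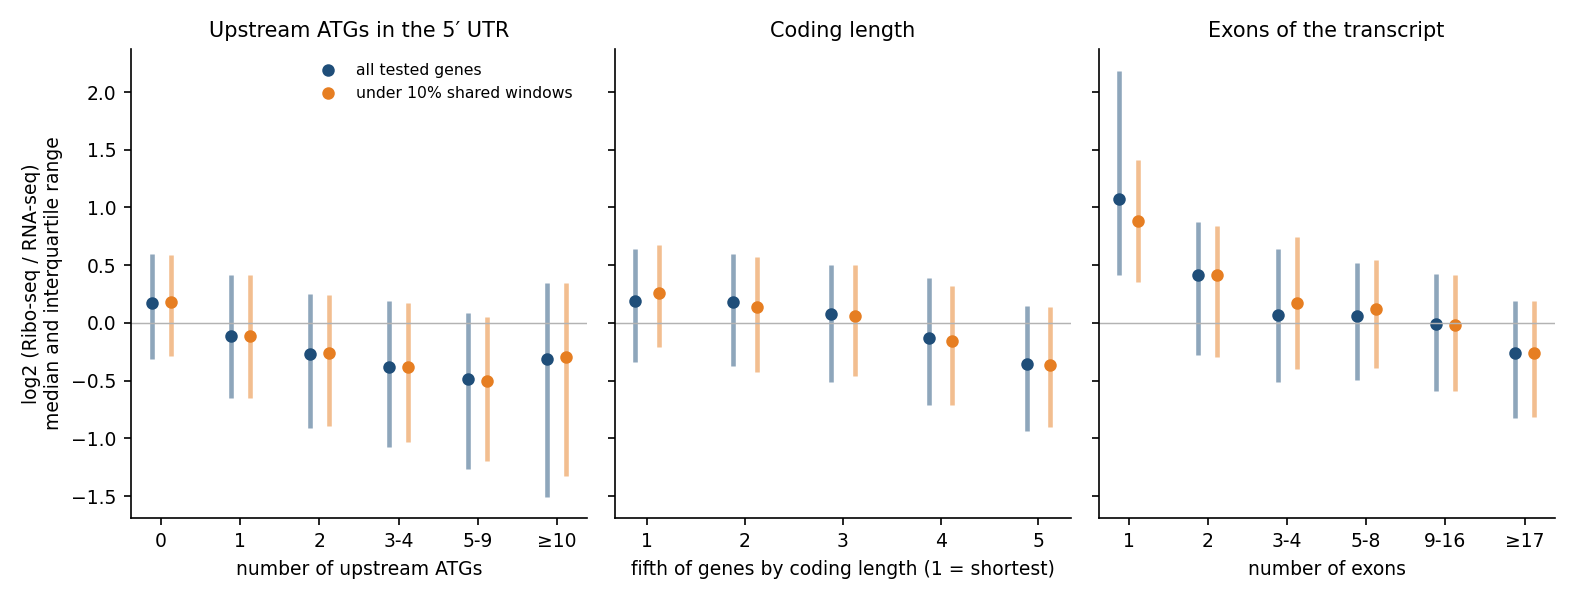
Median (points) and interquartile range (bars) of the log2 ratio of Ribo-seq to RNA-seq for genes grouped by the number of upstream ATGs, by quintiles of coding length and by the number of exons, for all tested genes and for those that share under 10% of their coding windows. The median falls from 0.17 without an upstream ATG to -0.48 with 5 to 9 of them, and is highest, at 1.07, for genes of 1 exon.

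The base at the third position before the start codon, where A or G favours initiation, went with a smaller difference: the median was 0.01 for 4496 genes with A or G and -0.17 for 710 with C or T. Genes of 1 exon had the highest median of the groups by exon number, 1.07 over 129 genes, and 0.89 over the 66 of them that shared under 10% of their windows, against -0.26 for genes with at least 17 exons. Among those 66 were Foxq1, a forkhead transcription factor, at 2.35 ± 0.40, Fzd8, a Wnt receptor, at 2.07 ± 0.40, and Gspt2, a paralog of the translation termination factor, at 2.26 ± 0.19, while Jund, also of 1 exon, was at -1.12. Without Ribo-seq replicate 3, Foxq1 was at 1.44, and with GC content and length trends removed it was at 0.43 and not called.

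The same ratios were computed in each overexpressing line from its own 6 libraries, none of which the control values used. Across 5241 genes tested in both, control and RPL3 OE ratios had a Pearson correlation of 0.981, and across 5249 genes control and RPL3L OE ratios one of 0.976. Of the 424 genes at least 2-fold higher in control cells, 381 were tested in RPL3 OE cells and 371 in RPL3L OE cells. Of the 424, 303 (71.5%) were called at least 2-fold higher in RPL3 OE cells and 263 (62.0%) in RPL3L OE cells, making 82.8% and 83.5% of those lines' own calls. The sign was the same for 380 of the 381 and 370 of the 371. Of the 756 lower genes, 752 and 756 were tested, and 683 (90.3%) and 648 (85.7%) were called, or 89.0% of each line's calls. Atf4 was at -3.36 in control, -3.17 in RPL3 OE and -3.38 in RPL3L OE cells, Fth1 at -3.59, -3.70 and -3.56, Myod1 at 0.87, 0.87 and 0.75, Lpp at 3.58, 3.57 and 3.21 and Cdk16 at -3.89, -3.97 and -3.88. The medians of ribosomal protein genes were -0.80 in RPL3 OE and -0.76 in RPL3L OE cells, and those of histone genes 6.83 and 7.03.

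**Figure D5:**
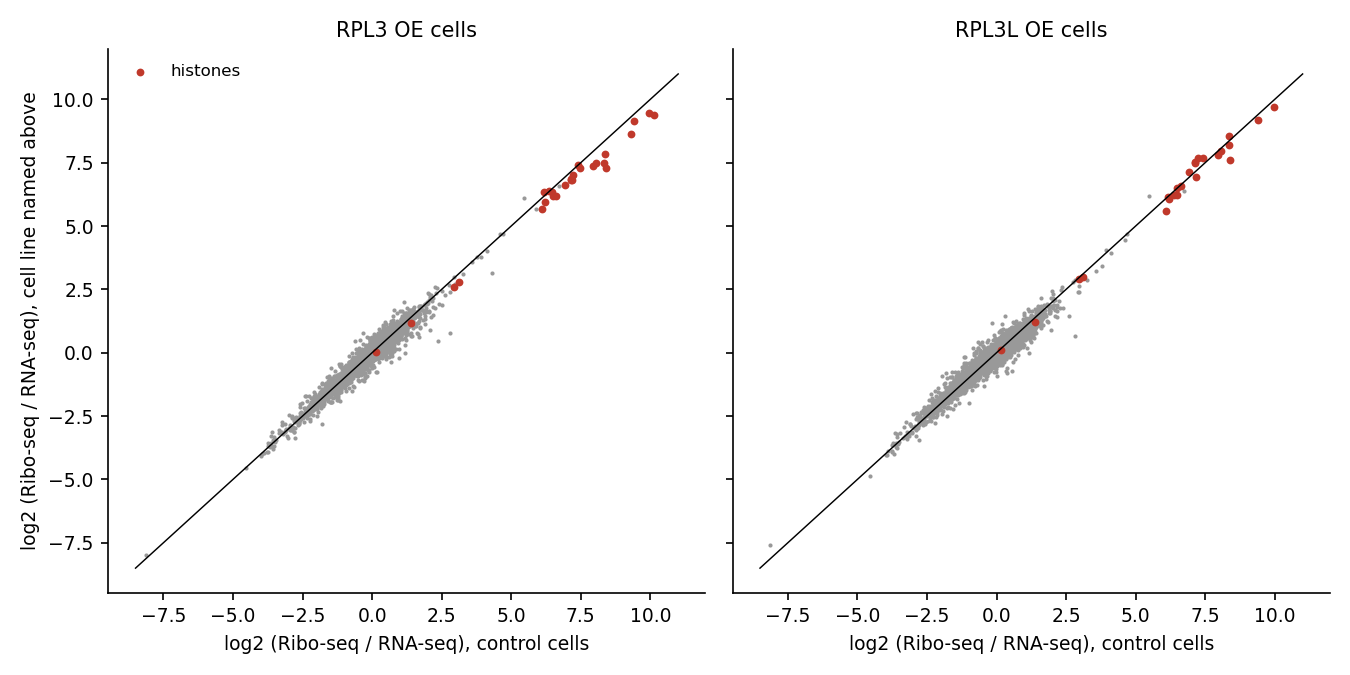
Log2 ratio of Ribo-seq to RNA-seq in RPL3 OE cells (left) and RPL3L OE cells (right), each from its own libraries, against control cells, with histone genes in red and the line of equal values. The points follow the line from Rps2 at -8.14 in control cells to the histones at the top.

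A test of the difference between lines, with all 18 C2C12 libraries in 1 fit of 5406 genes, called 6 of them for RPL3 OE against control (0.111%) and 118 (2.18%) for RPL3L OE against control, 58 higher (1.07%) and 60 lower (1.11%). These 2 comparisons share the control libraries. Both counts moved with single libraries. The first was 56 without RPL3 OE Ribo-seq replicate 3, 18 without control Ribo-seq replicate 1, 2 without RPL3 OE Ribo-seq replicate 1 and 1 without control Ribo-seq replicate 2. The second was 76 and 74 without control RNA-seq replicates 2 and 3, 67 and 78 without control Ribo-seq replicates 1 and 2, 50 without RPL3L OE RNA-seq replicate 3, and 46 and 71 without RPL3L OE Ribo-seq replicates 2 and 3. Among the genes described above, H2afx differed in RPL3L OE cells by -0.42 ± 0.09 (adjusted p = 0.00284) and Tnnt2 by 0.50 ± 0.10 (adjusted p = 0.00324), and Col1a1 in RPL3 OE cells by -0.39 ± 0.06.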

How the data were processed

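The authors deposited 1 table of counts per transcript (47754 lines, 23877 transcripts, each on 2 identical lines) for 62 samples. Per the study's methods, Ribo-seq reads were trimmed with cutadapt, quality filtered, cleared of rRNA and aligned with STAR to the transcriptome (GRCm38.p6), with multiple mappings allowed, deduplicated with UMI-tools and counted with featureCounts. Footprints of 20 to 22 nt were excluded. Tool versions, strand setting and RNA-seq read processing are not given in the sources used here. Of 1495 groups of transcripts with the same coding sequence and different exons, 1494 had RNA-seq counts within 5%. Counts of both assays were therefore taken as covering coding sequence, though Ribo-seq counts were not checked in this way. The m6A peaks deposited for heart were not used here.

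From the deposited counts, 1 line per transcript and, per gene, the transcript with the highest mean count over the 6 libraries were kept. Genes whose mean count reached 10 in both assays were fitted with edgeR 4.0.16 (TMM over the 6 libraries, quasi-likelihood test, 2-sided, Benjamini-Hochberg) in R 4.3.3. Counting error of RNA-seq and Ribo-seq is limited by median mean counts of 649.7 and 122. Transcripts were matched by identifier to GENCODE M21 (99.1%) for coordinates, coding length, 5′ UTRs, upstream ATGs and shared 28-base windows. A simulation on 5227 genes recovered 81.2% of 69 genes changed by 0.5 on the log2 scale and 98.6% of 70 changed by 1. It made 14 false calls among unchanged genes. Most of its genes were unchanged, whereas 77.4% of the real genes were called, so that its shares need not hold for the real comparison.

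The gene lists, markers and comparisons were chosen with earlier results of these data known. A list pattern for histones took in H1f0. Named by rule were the 10 genes at each end of the ratio (adjusted p under 0.05, no overlap of the assays, mean counts of at least 100 in RNA-seq and 20 in Ribo-seq, predicted genes, clones and pseudogenes left out, 1 beyond each end), the highest and lowest member of each list, all tested members of the upstream frame, iron and other TOP lists, the 5 most abundant genes in each assay, the 5 genes with most RNA-seq reads and a Ribo-seq mean under 10, and Rpl3l. Results for 3 genes are not reported here. The other 60 genes with ratios in the report, and the second histone list, were chosen after their values had been seen. No test was made over lists or features. Alternatives were other scalings, DESeq2 1.42.0, count filters, other choices of transcript, a replicate block, corrections for coding share and for GC content with length, glmTreat, all 18 C2C12 libraries in 1 fit, each library left out and, chosen after seeing the data, genes that share under 10% of their windows.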

Additional observations from a re-analysis of the deposited data

Results flagged for a closer look

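Of the genes described above, 12 had a log2 ratio that differed between a line overexpressing RPL3 or RPL3L and control cells, by the test of the group-by-assay interaction in edgeR with Benjamini-Hochberg adjustment over 5406 genes. Groups of 3 libraries are too small for a test of single outlying samples, and none was made. The differences against both lines rest on the same control libraries, and the lines were not tested against each other here. Each difference was fitted again 18 times, leaving out 1 library each time.

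Calls that held in all 18 of these fits were those of Col1a1 in RPL3 OE cells (-0.39, adjusted p = 0.000754) and, in RPL3L OE cells, of Thbs1 (-0.31, adjusted p = 0.00441), Dusp4 (-0.35, adjusted p = 0.00941) and H2afx (-0.42, adjusted p = 0.00284). The call was lost without control Ribo-seq replicate 2 for Thbs1 in RPL3 OE cells (-0.33, adjusted p = 0.00481, then 0.0699) and for Mrpl30 in RPL3L OE cells (0.39, adjusted p = 0.00906, then 0.0727). For Tnnt2 in RPL3L OE cells (0.50, adjusted p = 0.00324) it was lost without control Ribo-seq replicate 1 (0.0963). Ccn2 in RPL3L OE cells (-0.34, adjusted p = 0.0113) lost it without control Ribo-seq replicate 2, RPL3L OE Ribo-seq replicate 2 or RPL3L OE RNA-seq replicate 3, with adjusted p up to 0.0732.

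The 6 other differences, all in RPL3L OE cells, depended on more libraries. Col1a1 (-0.25, adjusted p = 0.0232) was called in 13 of the 18 fits and lost without control RNA-seq replicate 3, control Ribo-seq replicate 2, RPL3L OE RNA-seq replicate 2 or RPL3L OE Ribo-seq replicate 2 or 3 (adjusted p up to 0.121). Lgals1 (-0.32, adjusted p = 0.0310) was called in 12, lost without control replicates 2 and 3 of either assay or RPL3L OE replicate 3 of either assay (up to 0.139), and had an adjusted p of 0.0892 in DESeq2. Eif5 (0.24, adjusted p = 0.0416) was called in 11 and lost without control RNA-seq replicate 2 or 3, control Ribo-seq replicate 1 or 3, RPL3L OE RNA-seq replicate 3 or RPL3L OE Ribo-seq replicate 2 or 3 (up to 0.152). Rpn2 (-0.22, adjusted p = 0.0310) was called in 11 and lost without any 1 of the control RNA-seq replicates, control Ribo-seq replicate 3, RPL3L OE RNA-seq replicate 3 or RPL3L OE Ribo-seq replicate 2 or 3 (up to 0.126). Tuba1c (-0.26, adjusted p = 0.0310) was called in 9, lost without any 1 of the control RNA-seq replicates, control Ribo-seq replicate 2 or 3 or RPL3L OE replicate 2 or 3 of either assay (up to 0.0919). Slc2a1 (-0.21, adjusted p = 0.0478) was called in 3 and had an adjusted p of 0.0928 with library totals.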

How the results depend on the processing

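Of 2804 values of the 161 genes described, each under 1 alternative, 2705 had the direction and the call given above, 36 lost the call, 13 gained it and 50 had the other sign. Of 486 list medians 29 had the other sign, and none of these belonged to the 10 lists with a median beyond 0.5 in size. Sizes moved more: without genes that share 10% or more of their windows, 1 gene (H1f0, at 0.15) was left of the histone list, whose median had been 7.16, and 1 of the cytosolic ribosomal proteins, so that neither list has a median there. Depth was lowest in Ribo-seq, with a median over genes of 122 counts.

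Scaling by library totals, or by TMM within each assay, gave median ratios of 0.14 and 0.14 over all genes, with 2425 genes higher and 1752 lower under the first. It turned Rack1 (0.0499 and 0.0502), Col1a2 (0.058 and 0.058), Eif3f (0.084 and 0.083) and Vim (0.13 and 0.13). Genes at least 2-fold higher numbered 1048 without the count filter (51.1% of 2-fold calls), 256 with a mean count of at least 50, 249 when the fold itself was tested with glmTreat and 1130 after correction for coding share (54.6%). With all transcripts tested there were 4895 higher and 4965 lower, 1066 and 1863 of them by at least 2-fold, because 12977 transcripts entered. DESeq2 called 14 genes for RPL3 OE against control, and a fit of the 2 groups alone called 3. For RPL3L OE, library totals gave 187. The causes were not tested.

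Correction for coding share, which assumes that RNA-seq counts span the whole mRNA, turned Ndufaf4 (1.22), Nap1l1 (0.33), Oaz2 (0.30), Mief1 (0.57), Ppp1r15b (0.13), Eif3f (0.29), Eprs (-0.75), Ipo7 (-0.22), Eif3l (-0.19), Cdh15 (-0.12), Col3a1 (-0.18), Eif2b3 (-0.23), H2afz (0.45), Mcm5 (-0.071), Mef2d (-0.61), Psmd3 (-0.32) and Srp9 (1.01). Removing trends of GC content and length turned Psmd2 (0.034), Col1a2 (0.15), Bcl2l11 (-0.24), H1f0 (-0.15), Cebpa (-1.12), Cebpb (-1.03), Klf2 (-0.29) and Mef2d (-0.0485). Genes that had not passed the test changed sign near 0: Eprs without the filter (-0.0449), at a mean of 50 (-0.0245) and with the transcript of most Ribo-seq counts (-0.0020), Ipo7 without the filter (-0.0239) and at a mean of 50 (-0.0047), Mef2d without the filter (-0.0091) and Bcl2l11 with transcripts summed (-0.0753).

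Leaving out 1 library in turn gave 1848 to 1995 genes higher, 1976 to 2108 lower, 418 to 437 at least 2-fold higher and 752 to 777 at least 2-fold lower, and 1 to 56 and 46 to 142 differences for RPL3 OE and RPL3L OE. It gave values on either side of 0 for Vim (-0.0749 to 0.0313), Eprs (-0.0444 to 0.0413), Ipo7 (-0.0141 to 0.0516), Bcl2l11 (-0.10 to 0.27) and Mef2d (-0.0003 to 0.079).

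RNA-seq and Ribo-seq libraries share replicate numbers, and the deviations of same-numbered libraries correlated at 0.080, 0.056 and -0.009. The labels do not say that a number marks a shared culture, so whether the libraries are paired is not known. With the replicate number as a block, 2013 genes were higher, 2142 lower, 430 at least 2-fold higher and 756 at least 2-fold lower, with 6 and 107 differences for the lines, and Eprs was at -0.0046. RNA-seq libraries 1 and 2 correlated best with the Ribo-seq library of their own number, and RNA-seq library 3 did not.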

Other observations

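A further 149 genes had a Ribo-seq mean of at least 10 and an RNA-seq mean under 10. Of these, 24 (16.1%) have 1 exon and 41 (27.5%) share 10% or more of their coding windows. Several carry names of copies of widely expressed genes, such as Aldoart2 (RNA-seq counts of 1, 1 and 0, Ribo-seq counts of 814, 612 and 583), G6pd2 (7, 7 and 8, then 371, 233 and 230), Cks1brt (0, 0 and 0, then 172, 137 and 136) and D1Pas1 (0, 0 and 0, then 138, 96 and 103). Vsig8, which encodes a membrane protein of the immunoglobulin family, had RNA-seq counts of 0, 0 and 0 and Ribo-seq counts of 257, 264 and 166. For Tuba8, a tubulin of testis and muscle, the counts were 0, 0 and 0 and 152, 139 and 111, and for the liver pyruvate kinase gene Pklr 0, 2 and 4 and 129, 107 and 115. Vsig8 shared none of its windows with another gene, Tuba8 5.15% and Pklr 0.354%.

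In 2 genes the footprints came almost only from Ribo-seq replicate 3. Sv2a, a synaptic vesicle protein, had Ribo-seq counts of 4, 1 and 266, and Nppa, the atrial natriuretic peptide of the heart, 5, 2 and 32 with RNA-seq counts of 0, 0 and 0. These genes were chosen after their values had been seen.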
